A study of Arabidopsis thaliana with 24 samples.

Results

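The nuclear genes of the light-harvesting antenna were followed through 10 ATH1 probe sets, named by their identifiers and taken from the 22810 probe sets on the array, of which 22746 are not controls. They cover LHCB1 (probe set 255997_s_at, 5 loci, AT1G29910, AT1G29920, AT1G29930, AT2G34420 and AT2G34430), LHCB2 (263345_s_at, 3 loci, AT2G05070, AT2G05100 and AT3G27690), LHCB3 (248151_at, AT5G54270), LHCB4.1 (251082_at, AT5G01530), LHCB4.2 (258993_at, AT3G08940), LHCB5 (254970_at, AT4G10340), LHCB6 (259491_at, AT1G15820), LHCA1 (251814_at, AT3G54890), LHCA3 (265033_at, AT1G61520) and LHCA4 (252430_at, AT3G47470). Loci are those that carry each gene's name in the RefSeq gene table, and which of them each probe set detects was not checked. The platform annotation used here lists LHCB4.1 and LHCB4.2, while the other 8 names come from the rule that chose the probe sets. The LHCB1 and LHCB2 probe sets have the suffix of sets shared by related gene copies, so copies cannot be told apart there.

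Arabidopsis thaliana of the Columbia-0 background was either wild type (WT) or pnp1-1, which lacks the polynucleotide phosphorylase of the chloroplast, an enzyme that degrades and trims plastid RNA. All plants grew for 2 weeks on complete medium with 0.5% sucrose, at 22 °C with 16 h of light a day, and then spent 3 h or 1 week on new plates that held phosphate (+P) or lacked it (-P), where potassium sulfate replaced the potassium lost with the phosphate salt. Roots were removed before RNA was extracted, and each of the 8 groups had 3 arrays, each from at least 4 seedlings. The mutant is a single allele, so an effect of the locus cannot be told apart from one of that line. In such bulk samples fewer cells of a type and less RNA per cell cannot be told apart. The p-values measure the spread between these samples.

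Light-harvesting proteins bind chlorophyll and pass absorbed energy to the photosystems. They are encoded in the nucleus, made in the cytosol and imported into the chloroplast, and their transcripts are known to respond to light, to the circadian clock and to signals from the plastid. LHCB1, LHCB2 and LHCB3 form the trimers of photosystem II, LHCB4 (CP29), LHCB5 (CP26) and LHCB6 (CP24) are its minor antenna proteins, and the LHCA proteins form the belt of photosystem I.

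All 10 antenna probe sets were among the bright ones of these shoots. Their best rank on any array, out of 22746, lay between 1 and 23, and the lowest rank of any of them was 1369.5, for LHCB2. An antenna probe set was the brightest of all on 2 arrays. Levels are linear intensities. Apart from these ranks and a sum of root markers below, no probe set's level is set against another's. Values at 3 h carry 1 decimal and values at 1 week carry 2, and the labels name no batch. Whether the times were processed apart is not given in the sources used here, so genotypes and media were compared within each time.

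At 3 h on +P, all 10 antenna probe sets had a lower mean in pnp1-1 than in WT, and in all 10 the groups did not overlap. Groups that did not overlap, with pnp1-1 lower, were seen in 10.7% of all probe sets. LHCB1, LHCB4.1, LHCB5, LHCB6 and LHCA3 fell at an adjusted p under 0.05 (limma), a call made as lower for 3.32% of all probe sets. The median log2 difference of the 10 was -0.81, and that of all probe sets was -0.02.

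**Figure D1:**
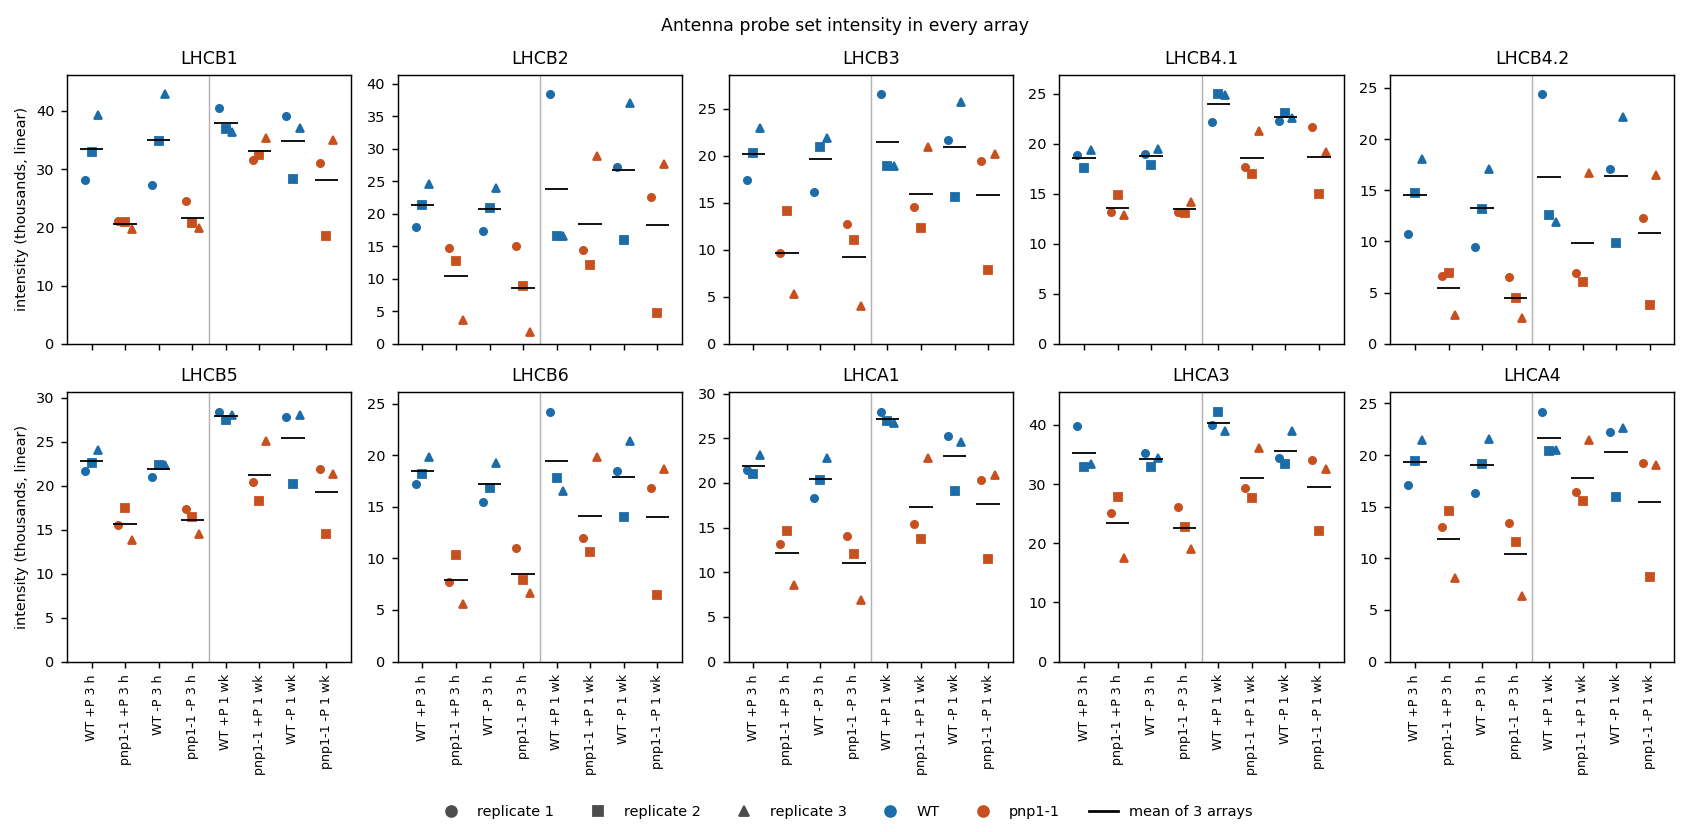
Linear intensity of the 10 antenna probe sets on each of the 24 arrays, with 1 panel per probe set, the groups along the x axis, markers for the 3 replicates and a bar for the group mean. At 3 h the pnp1-1 points lie below all WT points of the same medium in each panel, and LHCB2 spreads most within pnp1-1.

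Among the trimer genes, LHCB1 read 28118, 33013 and 39360 on the WT arrays and 21044, 20862 and 19659 on those of pnp1-1. The 3 mutant arrays lay close together and under every WT array. LHCB1 was at 61.8% of WT, a log2 difference of -0.69 ± 0.20 (SE, n = 3 arrays per group; adjusted p = 0.0426).
LHCB2 read 18026, 21383 and 24609 in WT and 14759, 12724 and 3694 in pnp1-1. The third mutant array stood far under the other two, and the difference of -1.26 ± 0.74 did not pass (adjusted p = 0.389).
LHCB3 read 17400, 20331 and 22934 in WT and 9704, 14094 and 5300 in pnp1-1. Here too the third mutant array was the lowest, and the difference was -1.16 ± 0.43 (adjusted p = 0.119).

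The minor antenna genes held the steadiest and one of the most variable probe sets. LHCB4.1 read 18861, 17556 and 19380 in WT and 13178, 14837 and 12854 in pnp1-1, a narrow spread in both groups. It was at 73.2% of WT, with a difference of -0.45 ± 0.11 (adjusted p = 0.0170).
LHCB4.2, which encodes a second CP29 protein, read 10746, 14707 and 18044 in WT and 6648, 6962 and 2844 in pnp1-1. Its difference of -1.48 ± 0.55 was the lowest of the 10 but did not pass (adjusted p = 0.122). Whether LHCB4.1 and LHCB4.2 differed in their response was not tested.
LHCB5 read 21729, 22637 and 24129 in WT and 15593, 17430 and 13891 in pnp1-1. Its groups were well apart, at 68.3% of WT and a difference of -0.55 ± 0.15 (adjusted p = 0.0353).
LHCB6 read 17216, 18198 and 19869 in WT and 7747, 10307 and 5591 in pnp1-1. The highest mutant array was far under the lowest WT array, and LHCB6 was at 41.5% of WT, a difference of -1.27 ± 0.34 (adjusted p = 0.0294).

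Of the photosystem I antenna, LHCA3 read 39852, 32846 and 33334 in WT and 25181, 27800 and 17496 in pnp1-1. It was at 65.5% of WT, a difference of -0.61 ± 0.17 (adjusted p = 0.0399).
LHCA1 read 21433, 21037 and 23176 in WT and 13162, 14630 and 8595 in pnp1-1. Its difference of -0.89 ± 0.27 lay just past the threshold (adjusted p = 0.0520).
LHCA4, the partner of LHCA1 in a dimer, read 17107, 19444 and 21508 in WT and 13029, 14565 and 8091 in pnp1-1. The difference was -0.74 ± 0.31 (adjusted p = 0.181).
These calls depended on the scaling and on single arrays. With quantile normalization, or with the compared groups fitted alone, 0 of the 10 were called. The count of 5 became 0 without WT replicate 3, without pnp1-1 replicate 1 or without pnp1-1 replicate 3, and 1 without WT replicate 2, while every difference stayed below 0.

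At 3 h on -P, all 10 probe sets again had a lower mean in pnp1-1 with no overlap between groups, which held for 9.26% of all probe sets. LHCB4.1 alone fell, and 1.74% of all probe sets were called lower. The median difference of the 10 was -0.94, beside -0.00117 for all probe sets.
LHCB4.1 read 18988, 17830 and 19433 in WT and 13166, 13089 and 14188 in pnp1-1. It was at 71.9% of WT, a difference of -0.48 ± 0.11 (adjusted p = 0.0185).
LHCB2 read 17346, 20868 and 23960 in WT and 14989, 8869 and 1809 in pnp1-1. The mutant arrays spread over 8.28-fold, and the difference of -1.72 ± 0.74 did not pass (adjusted p = 0.240). Its SE comes from 1 spread over all 8 groups, not from this group alone.
LHCB6 read 15474, 16823 and 19293 in WT and 10982, 7925 and 6642 in pnp1-1, a difference of -1.04 ± 0.34 (adjusted p = 0.0990). LHCA1 read 18305, 20319 and 22750 in WT and 14047, 12064 and 6941 in pnp1-1, a difference of -0.95 ± 0.27 (adjusted p = 0.0535). LHCA3 differed by -0.61 ± 0.17 (adjusted p = 0.0580), and the groups of these 3 genes stood apart although their tests did not pass.
The other 5 ranged from -0.45 for LHCB5 to -1.63 for LHCB4.2. Over all probe sets, same-numbered arrays of both genotypes deviated together here. The mean log2 deviations of the 10 from their group means did not. For replicates 1 to 3 they were -0.18, 0.01 and 0.17 in WT and 0.43, 0.13 and -0.56 in pnp1-1. With the replicate number as a block LHCB4.1 was no longer called (adjusted p = 0.0782). It also lost its call without WT replicate 1, WT replicate 3, pnp1-1 replicate 1 or pnp1-1 replicate 2, with adjusted p-values of 0.0503, 0.0795, 0.0665 and 0.0810.

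At 1 week on +P all 10 means were lower in pnp1-1, 5 without overlap, as were 12.9% of all probe sets. LHCB4.1 fell, where 4.01% of all probe sets were called lower. The median of the 10 was -0.40, and that of all probe sets was 0.05.
LHCB4.1 read 22129, 24925 and 24826 in WT and 17678, 16954 and 21238 in pnp1-1, a difference of -0.37 ± 0.11 (adjusted p = 0.0482). The third mutant array came close to the lowest WT array.
LHCB5 read 28371, 27491 and 28089 in WT and 20470, 18303 and 25051 in pnp1-1. Its groups did not overlap, and the difference was -0.41 ± 0.15 (adjusted p = 0.124).
LHCB2 read 38368, 16636 and 16582 in WT and 14447, 12162 and 28863 in pnp1-1. One array of each genotype stood high, the groups overlapped, and the difference was -0.35 ± 0.74 (adjusted p = 0.766).
LHCB4.1 was no longer called when any 1 of 4 arrays was left out. The adjusted p was then 0.171 (WT replicate 2), 0.147 (WT replicate 3), 0.168 (pnp1-1 replicate 1) or 0.225 (pnp1-1 replicate 2). WT replicates 2 and 3 were the closest pair of arrays in any group, and with them averaged the adjusted p was 0.161.

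On -P at 1 week no antenna probe set was called, while 0.545% of all probe sets were called lower. All 10 means were again lower in pnp1-1, with a median of -0.45 beside 0.01 for all probe sets, and 2 had an unadjusted p under 0.05, as had 10.8% of all probe sets. LHCB4.1 alone did not overlap, which 5.46% of all probe sets shared.
LHCB4.1 read 22271, 23106 and 22590 in WT and 21701, 15014 and 19196 in pnp1-1, a difference of -0.30 ± 0.11 (adjusted p = 0.239).
LHCB1 read 39053, 28339 and 37041 in WT and 31095, 18479 and 35053 in pnp1-1, a difference of -0.34 ± 0.20 (adjusted p = 0.639). The second array was the lowest in both genotypes, and the other 2 mutant arrays lay among the WT arrays. Over all probe sets, same-numbered arrays of the genotypes deviated together here. LHCB6 read 18426, 14032 and 21332 in WT and 16870, 6468 and 18702 in pnp1-1, lower in each same-numbered pair. Without the second mutant array alone, its WT counterpart kept, the LHCB6 difference moved from -0.48 to 0.00767. It was called in neither case.

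**Figure D2:**
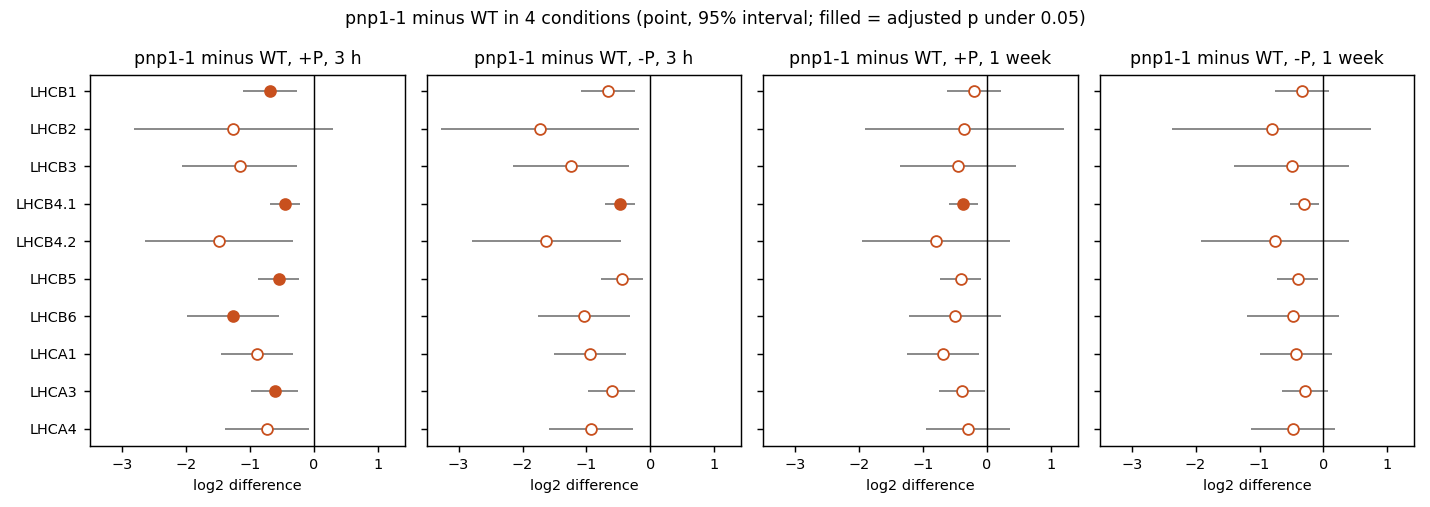
Log2 difference of pnp1-1 minus WT for the 10 antenna probe sets in the 4 combinations of medium and time, with 95% intervals from the limma fit and called values marked. Every point lies below 0, and the 5 calls at 3 h on +P are LHCB1, LHCB4.1, LHCB5, LHCB6 and LHCA3.

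Averaged over both media, a comparison added after the data were seen, 9 of 10 fell in pnp1-1 at 3 h, where 6.95% of all probe sets were called lower. LHCB4.1 differed by -0.46 ± 0.08 (adjusted p = 0.000571), LHCB6 by -1.15 ± 0.24 (adjusted p = 0.00305) and LHCA3 by -0.61 ± 0.12 (adjusted p = 0.00244). LHCB2 did not pass (-1.49, adjusted p = 0.0639).
Same-numbered arrays of the 2 media deviated together at 3 h, so they may not count as separate samples in this average. The labels give no shared day for them. With each such pair averaged first, 4 of 10 were called, namely LHCB1 (adjusted p = 0.0376), LHCB4.1 (0.0145), LHCB6 (0.0390) and LHCA3 (0.0388).
At 1 week LHCB4.1 (-0.33 ± 0.08, adjusted p = 0.00907) and LHCB5 (-0.41 ± 0.11, adjusted p = 0.0207) fell, where 5.64% of all probe sets were called lower. With the pairs averaged first 0 were called. At 1 week the deviations of such pairs correlated at -0.118, 0.361 and -0.518 in WT and -0.00447, 0.163 and 0.785 in pnp1-1. They did not deviate together throughout, and averaging leaves fewer arrays, so this loss of calls cannot tell whether pairs matter there.
The change in the genotype difference from 3 h to 1 week was above 0 for all 10, from 0.09 to 0.91, and passed for none, with a smallest adjusted p of 0.423. On this contrast 1.28% of all probe sets were called. On +P alone and -P alone none passed either, where 0.136% and 0.308% were called.

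Removal of phosphate left no antenna call in either genotype at either time. The median difference of -P minus +P was -0.04 in WT and -0.08 in pnp1-1 at 3 h, and -0.12 and -0.10 at 1 week. None of the 40 tests had an unadjusted p under 0.05. Across all probe sets the calls were 0% in WT and 0.00879% in pnp1-1 at 3 h, and 3.43% and 0.941% at 1 week.
The intervals below come from the fit without pairing, with 1 spread per probe set over all 8 groups. In WT at 3 h, where same-numbered arrays of the 2 media deviated together, LHCB2 read 18026, 21383 and 24609 on +P. On -P it read 17346, 20868 and 23960. Intervals of a fit paired by replicate number are not given. For LHCB4.1 in WT the 95% interval had bounds of -0.22 and 0.24 at 3 h, and of -0.31 and 0.15 after 1 week. For LHCB2 the bounds were -1.60 and 1.51, then -1.35 and 1.75, so that a change of over 2-fold either way lay inside them. LHCA1 in WT at 1 week was the one case of -P below +P without overlap, which 10.2% of all probe sets shared, at -0.25 with an interval from -0.82 to 0.31. The difference between genotypes in the response to the medium passed for no antenna probe set, with a smallest adjusted p of 0.941 at 1 week and 1 at 3 h, where 0.0791% and 0% of all probe sets were called.

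**Figure D3:**
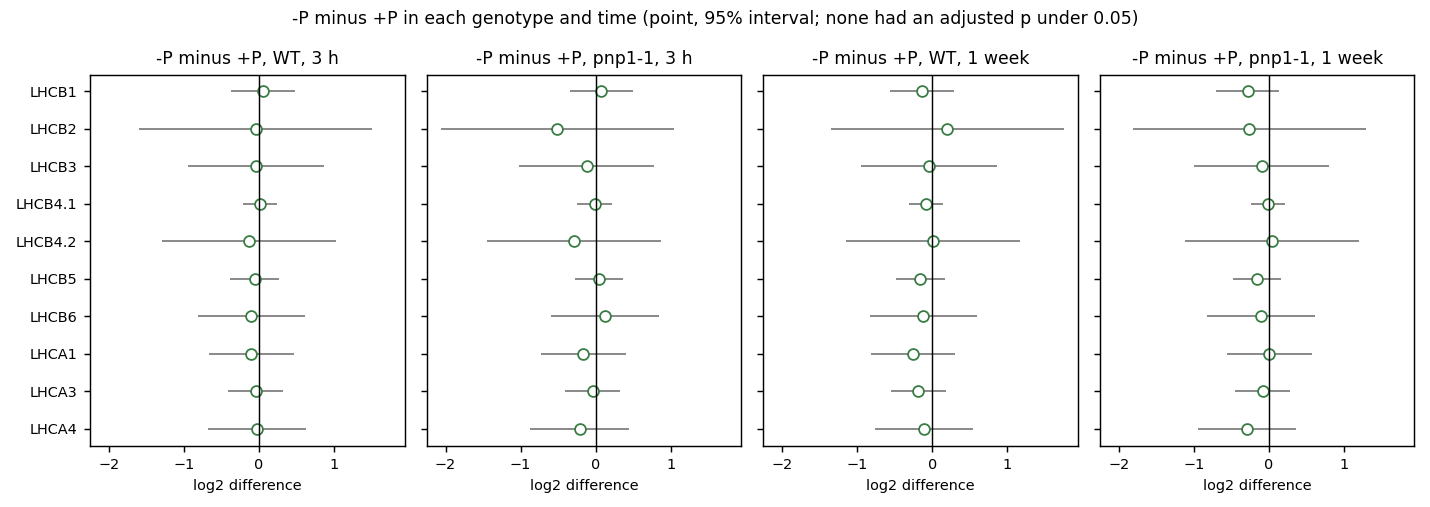
Log2 difference of -P minus +P for the 10 antenna probe sets in both genotypes at both times, with 95% intervals from the limma fit. All 40 intervals include 0, and they are widest for LHCB2.

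The 10 probe sets moved together from array to array. After each group's mean was taken off, Pearson's r over the 24 arrays lay between 0.353 and 0.975 for the 45 pairs, with a median of 0.825, a description over arrays that share labelling and scaling.
The third pnp1-1 array at 3 h was low on both media, with a mean log2 deviation over the 10 of -0.50 on +P and -0.56 on -P. On +P all 10 lay below their group mean and on -P 9 did. The second pnp1-1 array on -P at 1 week was lower still, at -0.77, with 10 of 10 below.
Spread differed by gene. The residual SD on the log2 scale was 0.13 for LHCB4.1 and 0.94 for LHCB2, beside a median of 0.30 for probe sets of mean intensity over 64. In WT at 3 h the highest array of an antenna probe set was at most 1.68 times the lowest on +P and 1.82 times on -P. In pnp1-1 the corresponding ratios reached 4.00 and 8.28, both for LHCB2. At 1 week the highest ratios on +P were 2.31 in WT and 2.77 in pnp1-1, and on -P 2.33 and 5.83. This difference in spread between genotypes was not tested.

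**Figure D4:**
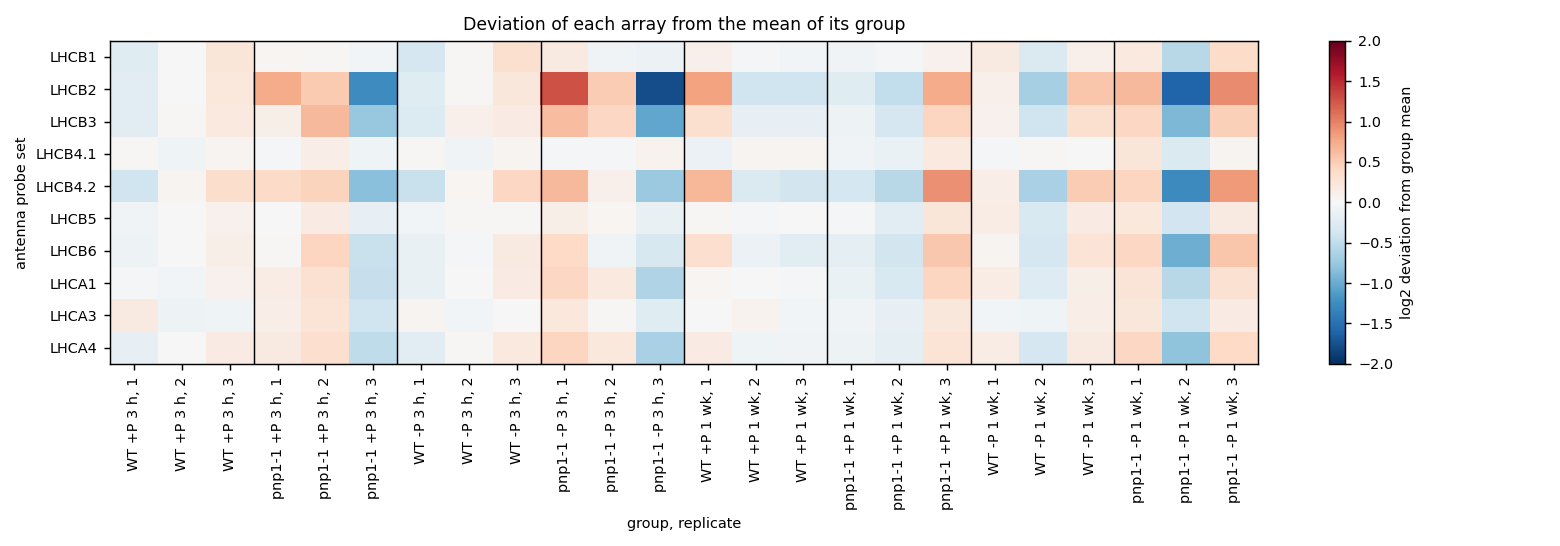
Log2 deviation of each antenna probe set from its group mean on every array. The third pnp1-1 arrays at 3 h and the second pnp1-1 array on -P at 1 week are low in nearly all of the 10, and LHCB2 deviates most.

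The clock gene GIGANTEA (GI), chosen after its values were seen, was low on the low antenna arrays at 3 h. It read 219.1 and 137.8 on the third pnp1-1 arrays at 3 h, on +P and -P, and between 607.8 and 1134 on the other arrays of that time. At 1 week low GI and low antenna levels did not go together throughout. GI read 78.35 on the second pnp1-1 array on -P, where the antenna was low. It also read 167.75 on WT +P replicate 1, 166.87 on pnp1-1 +P replicate 3, 173.68 on WT -P replicate 3 and 190.93 on pnp1-1 -P replicate 3, where the mean antenna deviation was above 0 (0.23, 0.41, 0.24 and 0.43). GI did not pass between genotypes (smallest adjusted p = 0.578), and its part in the antenna differences was not tested.

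The probe sets most like the mean antenna profile, centred within each time, were sought among 11437 with a mean intensity of at least 64. The closest, which has no listed gene, had r = 0.981 over the 24 arrays, and 8 of the 10 closest have no listed gene. The named ones were AILP1 (r = 0.919) and AT2G23840 (r = 0.909).

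Lists of related genes held 102 genes, of which 14 had a probe set with a single listed symbol. At 3 h on +P, where 3.32% of all probe sets were called lower, both measured nuclear subunits of photosystem I fell. Between genotypes on -P, no measured gene of the lists was called lower at either time. The median difference of the photosystem I subunits there was -0.61 at 3 h and -0.37 at 1 week. PSAE1, a subunit on its stromal side, read 22771, 21612 and 22175 in WT and 10993, 15576 and 14153 in pnp1-1, a difference of -0.72 ± 0.14 (adjusted p = 0.0039). PSAN, a subunit on the lumen side, differed by -0.93 ± 0.22 (adjusted p = 0.0141). In both genes the groups did not overlap.
Of the measured photosystem II subunits, PSBW fell (-0.65 ± 0.13, adjusted p = 0.0051) and PSBY did not pass (-0.68 ± 0.22, adjusted p = 0.0759). PSAE1 also fell at 1 week on +P (-0.47 ± 0.14, adjusted p = 0.0464), where 4.01% of all probe sets were called lower. PSAN lost its call without WT replicate 3, pnp1-1 replicate 1 or pnp1-1 replicate 3 (adjusted p = 0.0699, 0.0723 and 0.0520), and PSAE1 at 1 week lost it without any array other than pnp1-1 replicate 3 (adjusted p from 0.0764 to 0.233).
RCA, Rubisco activase and the one green-tissue marker measured, lay between 17512 and 36283 on all 24 arrays. It differed by -0.10 ± 0.17 at 3 h on +P (adjusted p = 0.917) and was called in no comparison. LHCB4.3, a further CP29 gene, was not called either (-0.96 ± 0.46 at 3 h on +P, adjusted p = 0.251). NOL, a chlorophyll b reductase, fell in pnp1-1 at 1 week on +P (-0.44, adjusted p = 0.0436), a call lost without any array other than pnp1-1 replicate 3 (adjusted p from 0.0935 to 0.178). NOL also fell on -P in WT at 1 week, from 862.79, 778.77 and 807.82 on +P to 461.9, 622.39 and 604.5 (-0.55 ± 0.13, adjusted p = 0.0233). That call was lost without any 1 +P array or without -P replicate 1 (adjusted p from 0.0507 to 0.104), and with the replicate number as a block (adjusted p = 0.320). Same-numbered arrays did not deviate together throughout in that comparison.
HYH, a transcription factor of light responses and the one measured regulator of antenna genes, read 229.2, 268.1 and 368.3 in pnp1-1 and 110.0, 33.7 and 31.2 in WT at 3 h on +P. It rose in the mean of both media at 3 h (2.16 ± 0.70, adjusted p = 0.0470), but was not called with same-numbered arrays averaged first (adjusted p = 0.0768), nor without any 1 array other than WT +P replicate 1 (adjusted p from 0.0591 to 0.109).

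Of 7 listed root markers 3 were measured, and 1 of them was called between genotypes. PYK10, a beta-glucosidase abundant in roots, rose in pnp1-1 in all 4 comparisons, by 1.80 and 2.39 at 3 h and 3.46 and 2.24 at 1 week, on +P and -P in turn. The share of all probe sets called higher in pnp1-1, for PYK10 here and HYH above, is not given. In the same order, 20.1%, 16%, 20.2% and 10.8% of all probe sets had an unadjusted p under 0.05 (limma) in either direction. For HYH's comparison, the mean of both media at 3 h, this share was 25.9%. These shares use a looser threshold than a call and take both directions, so they do not stand in for the missing share. The summed level of the 3 markers at 3 h on +P was 1014 to 1640 in WT and 3379 to 7710 in pnp1-1, nearly all from PYK10. EXPA7 and EXPA18, root hair expansins, were between 3.32 and 3.59 on every array of both genotypes. The part of PYK10-expressing tissue in the antenna differences was not tested.

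**Figure D5:**
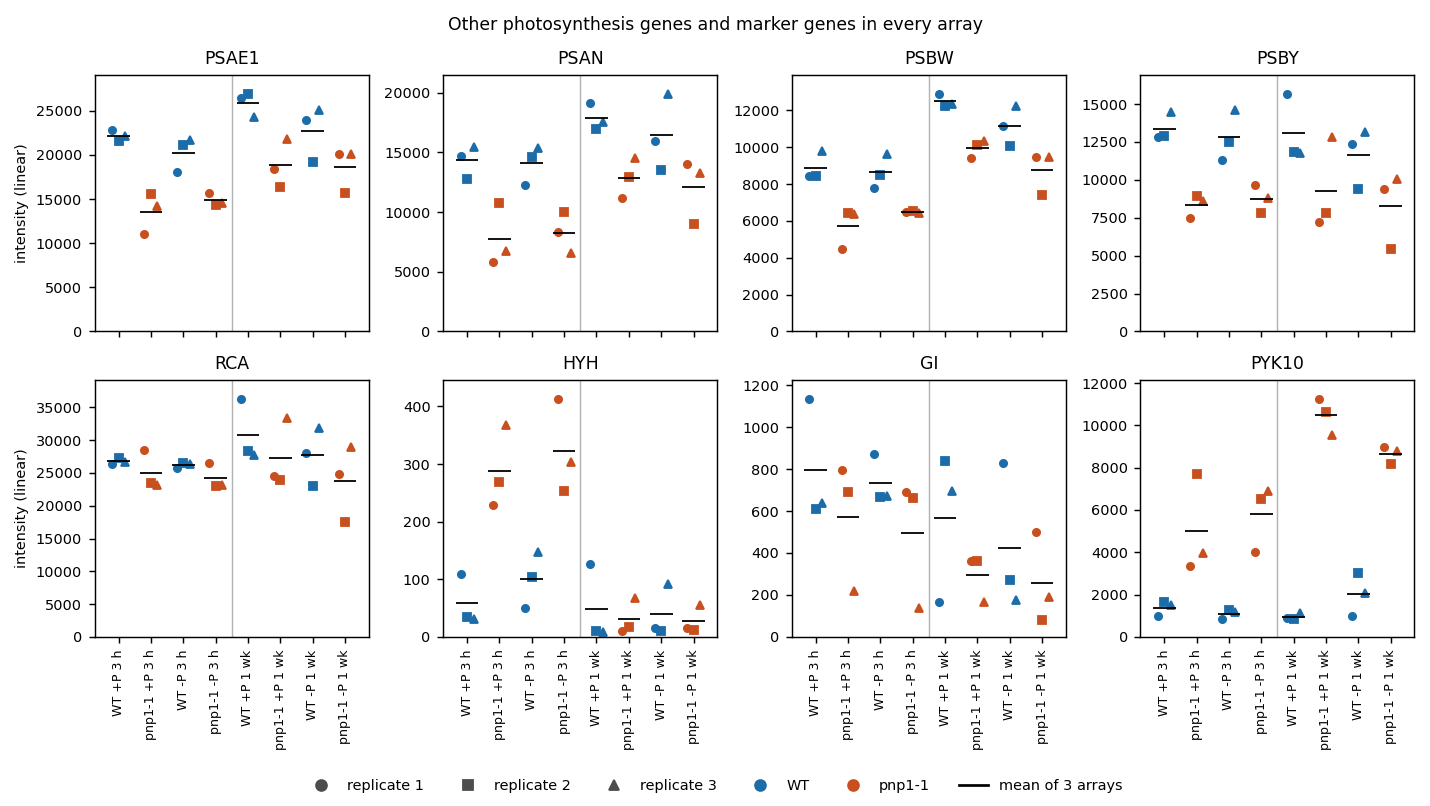
Linear intensity of PSAE1, PSAN, PSBW, PSBY, RCA, HYH, GI and PYK10 on each of the 24 arrays, with the groups along the x axis and a bar for the group mean. PYK10 is higher in pnp1-1 than in WT in all 4 pairs of groups, while RCA overlaps between genotypes.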

How the data were processed

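Per the labels' protocols, total RNA from seedlings without roots was labelled with biotin and hybridised, giving 24 arrays in 8 groups of 3. The authors deposited linear probe set intensities, and per the submitters' processing notes the tools were GCRMA, affy and limma, with no versions or roles given. Log2 was taken here, and 1 mean per group was fitted over all 24 arrays together (limma 3.58.1, R 4.3.3; 16 residual degrees of freedom, prior 1.40). Adjusted p-values are limma's, Benjamini-Hochberg over 22746 probe sets within each comparison; 64 control probe sets were left out, and calls are at an adjusted p under 0.05. Precision is limited by the number of arrays. Of the probe sets, 13513 have 1 listed symbol, 503 several and 8730 none.

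The 10 members were all named, with called members of the lists (at most 4 per list and comparison) and the 10 most similar probe sets. Members and lists were chosen with earlier results of these data known, and 3 comparisons averaging both media were added after the data were seen. The fit was run on simulated data with independent noise, and the outcome is not given here. That noise had no deviations shared between arrays or probe sets, so the run does not bear on pairing. Over all probe sets, same-numbered arrays' deviations correlated above 0.1 in all 3 pairs in 4 comparisons and not otherwise. They were genotype on -P at 3 h (0.160, 0.355 and 0.310) and at 1 week (0.546, 0.623 and 0.600). The others were the medium at 3 h in WT (0.671, 0.466 and 0.687) and pnp1-1 (0.230, 0.433 and 0.422). In the remaining comparisons pairs went both ways. They did so for genotype on +P at 1 week (-0.521, 0.184 and -0.440) and the medium in WT at 1 week (-0.118, 0.361 and -0.518). The labels give no shared day. The alternatives were quantile normalization, median centring, a floor, a dim filter, a trended prior, array weights, separate fits, the replicate block and leaving out arrays. The transcript of the mutated gene was not analysed here.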

Additional observations from a re-analysis of the deposited data

How the results depend on the processing

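No member, and no listed gene called in at least 1 comparison, reversed a call under any alternative run. The other listed genes were not rerun. Of 1160 recomputed genotype differences of the members, 1158 were below 0. They are refits of the same 24 arrays over probe sets that moved together, not separate evidence. The exceptions were uncalled. They were LHCB2 on +P at 1 week without WT replicate 1 and LHCB6 on -P at 1 week without pnp1-1 replicate 2. The calls depended on the settings. For genotype on +P at 3 h, 5 calls became 0 with quantile normalization, 3 with levels under 16 set to 16, 0 with the groups fitted alone, and 0 to 4 when leaving out single arrays. On -P at 3 h, 1 call became 0 with quantile normalization, 2 with median centring, 2 with the dim filter, 2 with the trended prior and 9 with array weights, and 0 to 1 when leaving out arrays. On +P at 1 week, 1 call became 0 with quantile normalization, median centring, the floor, the dim filter, the trended prior, the groups alone or WT replicates 2 and 3 averaged, 4 with array weights, and 0 to 2 when leaving out arrays. On -P at 1 week array weights gave 10 calls in place of 0, and for -P minus +P in pnp1-1 at 1 week 4 in place of 0. In that fit pnp1-1 replicates 1 to 3 on -P at 1 week had weights of 0.18, 4.02 and 0.38. The weighted mean of this group thus lay mostly with replicate 2, the array with a mean antenna deviation of -0.77. Leaving out arrays gave 0 calls in these 2 comparisons. For the mean of both media at 3 h, 9 calls became 4 with same-numbered arrays averaged and 6 to 10 when leaving out arrays. At 1 week 2 calls became 1 with quantile normalization, 0 with median centring, 0 with the groups alone, 10 with array weights, 0 with arrays averaged, and 1 to 6 when leaving out arrays. With the replicate block, 5, 1 and 1 calls for genotype on +P at 3 h, -P at 3 h and +P at 1 week each became 0, and no other count of calls moved by over 1.5 times. On +P same-numbered arrays of the genotypes did not deviate together, so the block there does not stand for a pairing seen in these data. The cause of these shifts was not tested. Median centring moved the median of all probe sets by at most 0.09 in the comparisons of genotypes or media, and by 0.16 for genotype by time on +P (0.06 to 0.22), where the median of the members less that of all probe sets was then 0.41.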
